A study of Mus musculus with 18 samples.

Results

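The 56 genes described here act in the cell cycle and in DNA replication, and they were read in bone marrow-derived dendritic cells (DCs) that had been squeezed under a low ceiling or given a bacterial signal. They were chosen by name from a list of cell cycle genes and found by their symbols in the deposited table, in which all 56 of 56 were present among 62197 genes. By role, 25 act at the entry into S phase or during it, 28 act in G2 or mitosis, and 3 are D cyclins. A cell enters the cycle when D cyclins and their kinases inactivate the retinoblastoma protein, which frees E2F factors to switch on the genes of DNA synthesis. Later, B-Myb and FOXM1 raise the genes of mitosis, and the anaphase-promoting complex, a ubiquitin ligase, then removes their products. Dendritic cells grown from marrow arise from dividing progenitors and stop dividing as they mature.

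The study asked how cell shape changes acted on DCs through cytosolic phospholipase A2 (cPLA_2_), encoded by *Pla2g4a*. The study describes this enzyme as moving to the nucleus and joining its inner membrane once activated. Bulk RNA was sequenced from 18 libraries in 6 groups of 3, with cPLA_2_ WT control DCs and cPLA_2_ KO DCs in each of 3 conditions. In the knockout mice the study crossed a floxed *Pla2g4a* allele with a Cre driven by the *Itgax* (CD11c) promoter, so the deletion was limited to cells in which that promoter had been active. All cells came from mouse bone marrow kept for 10 days with serum and a supernatant that held GM-CSF, a medium in which granulocytes and macrophages also arise. By the study's methods loose granulocytes and firmly attached macrophages were left behind, and the partly attached cells were kept as DCs. Nonconfined, immature DCs were taken directly when the culture ended. Confined DCs were held under a ceiling 3 µm high and taken 4 h after confinement. By their labels, the LPS groups received 100 ng/ml lipopolysaccharide for 30 min, were washed and were taken the next day, and the study's methods give another duration. Time and handling therefore differed between the conditions and cannot be told apart from the treatments. The study calls its replicates biological, but the labels do not say whether these libraries came from separate animals or cultures, so p-values measure only the spread between these samples.

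The genotype labels were checked first. *Pla2g4a* read 697, 686 and 770.4 normalized counts in the 3 nonconfined cPLA_2_ WT libraries and 548, 542 and 533 in the 3 nonconfined cPLA_2_ KO libraries. After confinement it read 1369, 1430.3 and 1321 (cPLA_2_ WT) and 923, 871 and 919.5 (cPLA_2_ KO). The knockout libraries were lower without overlap in both conditions, although the transcript remained present. In the LPS groups the libraries labelled cPLA_2_ WT read 1005, 969 and 967 and those labelled cPLA_2_ KO read 1065, 1032 and 1028, so the labelled knockout was not lower. The Y-linked *Ddx3y* read 1271, 0 and 662 in the libraries labelled LPS cPLA_2_ WT and 2.12, 1476 and 783 in those labelled LPS cPLA_2_ KO. Among the other groups *Ddx3y* stood near 0 in every cPLA_2_ WT library and between 874 and 1036 in every cPLA_2_ KO library. The Y-linked *Eif2s3y* had the same split, with 604, 572 and 638 in nonconfined cPLA_2_ KO libraries and at most 1.71 in nonconfined cPLA_2_ WT ones, and read 799, 1.83 and 448 by the LPS cPLA_2_ WT label and 2.12, 863 and 505 by the LPS cPLA_2_ KO label. *Xist*, which is transcribed from the inactive X chromosome of females, read 12153, 19081 and 14328 in nonconfined cPLA_2_ KO libraries, so these held RNA from both sexes. It read 27953, 33681 and 30681 in nonconfined cPLA_2_ WT libraries. Donor sex and genotype therefore cannot be told apart in the comparisons of nonconfined or of confined genotypes, and the data go against the genotype labels of the LPS groups. Those 6 libraries are called by their labels here and are also given pooled.

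The labelled cell type was checked against 9 dendritic cell markers. All 9 were detected, and their sum was 421051 ± 13349 (SD, n = 3) normalized counts in nonconfined cPLA_2_ WT DCs and 365285 ± 13967 (SD, n = 3) after confinement, with *Cd74* the most abundant. It was 503303 ± 14597 before and 353459 ± 7773 after confinement for cPLA_2_ KO, and 552815 ± 47014 and 554397 ± 38841 in the libraries labelled LPS cPLA_2_ WT and LPS cPLA_2_ KO. On confinement 8 of the 9 fell in cPLA_2_ WT DCs and 9 in cPLA_2_ KO DCs, with *Flt3* at -1.53 and -2.17. Of all genes tested 28.4% and 23.4% fell. The 18 libraries held between 33027230 and 61300021 reads counted on genes, as recovered from the deposited normalized counts. Each gene was tested with limma on log2(normalized count + 1), and it is said to rise or fall where the p-value adjusted over all 17875 genes tested was under 0.05. All 56 members passed the filter on low counts.

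Genes of S phase fell on confinement in both genotypes. In cPLA_2_ WT DCs all 25 S phase members fell, with a median log2 fold change of -1.16, where -0.01 was the median of all genes tested, 28.4% of which fell and 28.2% of which rose. In cPLA_2_ KO DCs all 25 fell as well, with a median of -0.78 against 0.01 over all genes, 23.4% of which fell and 22.8% of which rose. A log2 fold change below -1 was reached by 16 S phase members in cPLA_2_ WT DCs, against 7.62% of all genes, and by 8 in cPLA_2_ KO DCs, against 5.53%. In bulk RNA, fewer dividing cells and less of each transcript per cell cannot be told apart.

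*E2f1* (gene identifier GSMG0033235, chr2:154401320-154411812 in GRCm39), an activator of S phase genes, read 1158, 979 and 996 (cPLA_2_ WT) and 935, 858 and 908 (cPLA_2_ KO) in nonconfined DCs, then 544, 475 and 515 (cPLA_2_ WT) and 581, 552 and 611 (cPLA_2_ KO) in confined DCs. Every confined library lay below every nonconfined library of its genotype (log2 fold change -1.03, limma adjusted p = 4.53e-10 for cPLA_2_ WT, and -0.63, adjusted p = 1.41e-06 for cPLA_2_ KO). *Ccne1*, which encodes cyclin E1, the partner of CDK2 at the start of S phase, read 1775, 1722 and 1922 (cPLA_2_ WT) and 1537, 1549.9 and 1521 (cPLA_2_ KO) in nonconfined DCs, then 654, 762 and 685 (cPLA_2_ WT) and 813, 795 and 804 (cPLA_2_ KO) in confined DCs. It fell without overlap in both genotypes (log2 fold change -1.37, limma adjusted p = 2.97e-12 for cPLA_2_ WT, and -0.93, adjusted p = 3.6e-09 for cPLA_2_ KO). *Ccne2*, its paralogue, read 728, 768 and 762 (cPLA_2_ WT) and 611, 601 and 563 (cPLA_2_ KO) in nonconfined DCs, then 250.3, 278 and 211 (cPLA_2_ WT) and 282, 304 and 333 (cPLA_2_ KO) in confined DCs. Again the confined libraries were the low ones (log2 fold change -1.62, limma adjusted p = 6.97e-08 for cPLA_2_ WT, and -0.95, adjusted p = 0.000128 for cPLA_2_ KO).

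The steepest fall in the S phase group was that of *Cdc6* (gene identifier GSMG0061331, chr11:98798627-98814768 in GRCm39), which loads the replicative helicase onto origins, and it read 1030.2, 1009 and 966 (cPLA_2_ WT) and 746, 767 and 749 (cPLA_2_ KO) in nonconfined DCs, then 248, 202 and 249 (cPLA_2_ WT) and 279, 252 and 276 (cPLA_2_ KO) in confined DCs. All confined libraries were below all nonconfined ones (log2 fold change -2.11, limma adjusted p = 9.83e-12 for cPLA_2_ WT, and -1.48, adjusted p = 6.67e-09 for cPLA_2_ KO). The helicase itself is the MCM complex, and its subunit gene *Mcm2* read 1133, 1194 and 1089.8 (cPLA_2_ WT) and 789.8, 987 and 966 (cPLA_2_ KO) in nonconfined DCs, then 327, 390.2 and 396 (cPLA_2_ WT) and 472, 414 and 364 (cPLA_2_ KO) in confined DCs. The groups did not overlap (log2 fold change -1.62, limma adjusted p = 2.24e-09 for cPLA_2_ WT, and -1.13, adjusted p = 9.44e-07 for cPLA_2_ KO). *Mcm5*, of the same ring, read 6641, 6093 and 6514 (cPLA_2_ WT) and 5241, 5327 and 5209.6 (cPLA_2_ KO) in nonconfined DCs, then 3470.0, 3219 and 3493 (cPLA_2_ WT) and 3213, 3067 and 3317 (cPLA_2_ KO) in confined DCs. It moved less than *Mcm2* and fell in both genotypes (log2 fold change -0.92, limma adjusted p = 7.96e-09 for cPLA_2_ WT, and -0.72, adjusted p = 6.2e-07 for cPLA_2_ KO). The 6 *Mcm* members lay between -1.62 and -0.92 in cPLA_2_ WT DCs.

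*Pcna*, the sliding clamp of the replication fork, read 8853, 8868 and 8694 (cPLA_2_ WT) and 8703, 8113 and 7639.7 (cPLA_2_ KO) in nonconfined DCs, then 5849, 5720.4 and 5663 (cPLA_2_ WT) and 6862, 7052 and 7089 (cPLA_2_ KO) in confined DCs. It fell in both genotypes, and the groups did not overlap (log2 fold change -0.62, limma adjusted p = 1.23e-10 for cPLA_2_ WT, and -0.22, adjusted p = 0.000397 for cPLA_2_ KO). *Gins2*, a subunit of the fork's helicase, changed by the smallest amount of the S phase group in cPLA_2_ WT DCs (-0.42, limma adjusted p = 0.00171). *Uhrf1*, which guides maintenance methylation to newly copied DNA, read 2314, 1897 and 2047 (cPLA_2_ WT) and 1518, 1690.5 and 1681 (cPLA_2_ KO) in nonconfined DCs, then 776, 705 and 651 (cPLA_2_ WT) and 885, 788 and 877 (cPLA_2_ KO) in confined DCs. Confined libraries of both genotypes were low (log2 fold change -1.55, limma adjusted p = 1.53e-11 for cPLA_2_ WT, and -0.94, adjusted p = 9.85e-08 for cPLA_2_ KO).

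Among the genes of nucleotide supply, *Rrm2*, the small subunit of ribonucleotide reductase, read 3558, 3609 and 3792 (cPLA_2_ WT) and 3108, 3089 and 3032 (cPLA_2_ KO) in nonconfined DCs, then 1426, 1284 and 1374 (cPLA_2_ WT) and 1941, 1865 and 1865 (cPLA_2_ KO) in confined DCs. It was lower in all confined libraries, and lowest in the cPLA_2_ WT ones (log2 fold change -1.42, limma adjusted p = 2.54e-13 for cPLA_2_ WT, and -0.70, adjusted p = 5.72e-08 for cPLA_2_ KO). *Tyms*, thymidylate synthase, read 1293, 1368 and 1360.0 (cPLA_2_ WT) and 1306, 1141 and 1198 (cPLA_2_ KO) in nonconfined DCs, then 938, 867 and 881 (cPLA_2_ WT) and 651, 804 and 673 (cPLA_2_ KO) in confined DCs. Here the confined cPLA_2_ KO libraries were the lowest (log2 fold change -0.58, limma adjusted p = 4.68e-05 for cPLA_2_ WT, and -0.78, adjusted p = 2e-06 for cPLA_2_ KO). *Tk1*, thymidine kinase, fell by more than *Tyms* in cPLA_2_ WT DCs (-1.52, limma adjusted p = 3.3e-08). *Brca1*, a gene of DNA repair, had a log2 fold change in cPLA_2_ WT DCs of -0.53 (limma adjusted p = 0.0159), a call that ended without confined cPLA_2_ WT replicate 3 (-0.43, adjusted p = 0.0763) or nonconfined cPLA_2_ WT replicate 2 (-0.47, adjusted p = 0.0593).

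**Figure D1:**
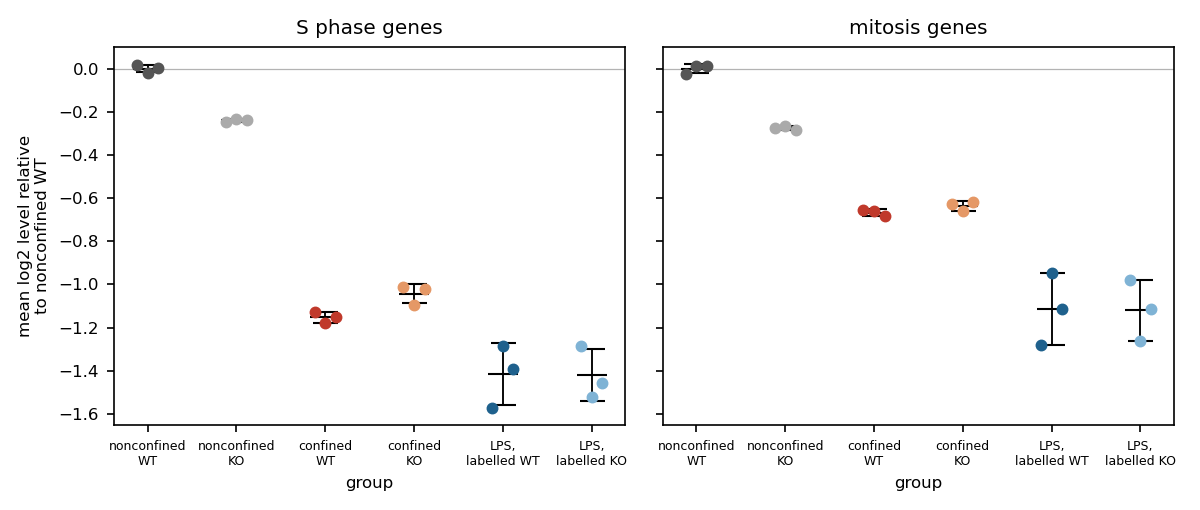
Mean level of the S phase and of the mitosis members in each library, on the log2 scale relative to the mean of nonconfined cPLA_2_ WT libraries, with points for libraries and bars for mean and SD (n = 3). The S phase mean after confinement was -1.15 ± 0.03 (cPLA_2_ WT) and -1.04 ± 0.04 (cPLA_2_ KO), and the mitosis mean was -0.67 ± 0.02 and -0.63 ± 0.02.

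Most genes of mitosis fell too, with a smaller median change than genes of S phase, and a few went the other way. In cPLA_2_ WT DCs 25 of 28 fell, 2 rose and 1 did not pass the test, with a median log2 fold change of -0.77 (all genes, 28.4% fell and 28.2% rose). In cPLA_2_ KO DCs 23 fell, 1 rose and 4 did not pass, with a median of -0.43 (all genes, 23.4% and 22.8%). A log2 fold change below -1 was reached by 3 mitosis members in cPLA_2_ WT DCs, against 7.62% of all genes, and by no mitosis member in cPLA_2_ KO DCs, against 5.53%. Under a scaling to equal totals the median of all genes shifted to -0.23 in cPLA_2_ WT DCs, and the S phase and mitosis medians relative to it were -1.16 and -0.77. The same scaling left 3578 genes rising and 7380 falling in cPLA_2_ WT DCs, where 5038 and 5075 did with the deposited scaling, and members moved from 3 rising and 52 falling to 2 and 53.

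*Cdk1* (gene identifier GSMG0005985, chr10:69170986-69188769 in GRCm39), the kinase that drives mitosis, read 2727, 2817 and 2787 (cPLA_2_ WT) and 2348, 2174 and 2383 (cPLA_2_ KO) in nonconfined DCs, then 1717, 1624 and 1514 (cPLA_2_ WT) and 1703, 1721 and 1592 (cPLA_2_ KO) in confined DCs. Confined libraries were lower without overlap (log2 fold change -0.78, limma adjusted p = 9.73e-07 for cPLA_2_ WT, and -0.46, adjusted p = 0.00078 for cPLA_2_ KO). *Ccnb1*, its cyclin partner, read 1804, 1866 and 1754 (cPLA_2_ WT) and 1379, 1282 and 1378 (cPLA_2_ KO) in nonconfined DCs, then 1068, 1044 and 1093 (cPLA_2_ WT) and 1232, 1141 and 1323 (cPLA_2_ KO) in confined DCs. It fell in cPLA_2_ WT DCs (-0.76, limma adjusted p = 8.63e-07), while in cPLA_2_ KO DCs the groups overlapped and the value was -0.13 (adjusted p = 0.295). *Foxm1*, a transcription factor of G2 and mitosis genes whose entry in the table also carries the symbol *Tex52*, read 2964, 2656 and 2623 (cPLA_2_ WT) and 2219, 2277 and 2243 (cPLA_2_ KO) in nonconfined DCs, then 1422, 1462 and 1482 (cPLA_2_ WT) and 1822, 1550.5 and 1883 (cPLA_2_ KO) in confined DCs. The nonconfined libraries were the high ones (log2 fold change -0.91, limma adjusted p = 6.08e-09 for cPLA_2_ WT, and -0.36, adjusted p = 0.00127 for cPLA_2_ KO).

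*Plk1*, a kinase of mitotic entry and spindle assembly, read 2654, 2469 and 2563 (cPLA_2_ WT) and 2049, 2045 and 1965 (cPLA_2_ KO) in nonconfined DCs, then 1402, 1279 and 1438 (cPLA_2_ WT) and 1575, 1369 and 1495 (cPLA_2_ KO) in confined DCs. All confined libraries were below the nonconfined ones of the same genotype (log2 fold change -0.90, limma adjusted p = 2.59e-07 for cPLA_2_ WT, and -0.45, adjusted p = 0.0015 for cPLA_2_ KO). *Aurkb*, the kinase of the chromosomal passenger complex, read 1644, 1434 and 1599 (cPLA_2_ WT) and 1322, 1302 and 1329 (cPLA_2_ KO) in nonconfined DCs, then 705, 787 and 636 (cPLA_2_ WT) and 913, 809 and 804 (cPLA_2_ KO) in confined DCs. It was lower after confinement in each genotype (log2 fold change -1.14, limma adjusted p = 1.14e-08 for cPLA_2_ WT, and -0.65, adjusted p = 4.87e-05 for cPLA_2_ KO). *Birc5*, survivin, of the same complex, read 3215, 3143 and 3524 (cPLA_2_ WT) and 3170.2, 2717 and 2993 (cPLA_2_ KO) in nonconfined DCs, then 1794, 1746 and 1739 (cPLA_2_ WT) and 1884, 1829.8 and 1885 (cPLA_2_ KO) in confined DCs. It fell without overlap (log2 fold change -0.90, limma adjusted p = 2.05e-09 for cPLA_2_ WT, and -0.66, adjusted p = 4.46e-07 for cPLA_2_ KO).

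*Cdc20*, which activates the anaphase-promoting complex, read 3277, 3225 and 3330.3 (cPLA_2_ WT) and 2825, 2708 and 2726 (cPLA_2_ KO) in nonconfined DCs, then 1752, 1543 and 1530.4 (cPLA_2_ WT) and 1997, 1889.5 and 1926 (cPLA_2_ KO) in confined DCs. Each confined library was below each nonconfined one of its genotype (log2 fold change -1.03, limma adjusted p = 1.03e-10 for cPLA_2_ WT, and -0.51, adjusted p = 8.09e-06 for cPLA_2_ KO). *Top2a*, the topoisomerase that untangles chromosomes, read 20099, 20902 and 20835 (cPLA_2_ WT) and 14917, 16433 and 15439 (cPLA_2_ KO) in nonconfined DCs, then 11630.4, 12285 and 11935 (cPLA_2_ WT) and 10763, 11239 and 10742 (cPLA_2_ KO) in confined DCs. It fell in both genotypes (log2 fold change -0.79, limma adjusted p = 5.62e-08 for cPLA_2_ WT, and -0.51, adjusted p = 3.34e-05 for cPLA_2_ KO). *Mki67* (gene identifier GSMG0052674, chr7:135291513-135318147 in GRCm39), which coats mitotic chromosomes and is a common mark of cycling cells, read 3757, 4189 and 3937 (cPLA_2_ WT) and 2237, 2927 and 2555 (cPLA_2_ KO) in nonconfined DCs, then 3265, 3932 and 3871 (cPLA_2_ WT) and 2329.6, 3052 and 2617 (cPLA_2_ KO) in confined DCs. Its groups overlapped within each genotype, and the values were -0.11, limma adjusted p = 0.382 for cPLA_2_ WT, and 0.05, adjusted p = 0.704 for cPLA_2_ KO. With equal totals *Mki67* fell in cPLA_2_ WT DCs (-0.33, limma adjusted p = 0.0119). The cPLA_2_ KO libraries lay below the cPLA_2_ WT libraries in both conditions.

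*Cenpa* (gene identifier GSMG0040086, chr5:30824230-30835149 in GRCm39), the histone H3 variant of centromeres, read 3831, 3924 and 4106 (cPLA_2_ WT) and 3980.3, 3461 and 3739 (cPLA_2_ KO) in nonconfined DCs, then 5771, 5555 and 5753 (cPLA_2_ WT) and 6146, 6405 and 6335 (cPLA_2_ KO) in confined DCs. It was higher in every confined library of each genotype and rose (log2 fold change 0.53, limma adjusted p = 1.03e-08 for cPLA_2_ WT, and 0.76, adjusted p = 7.09e-11 for cPLA_2_ KO). *Pttg1* (gene identifier GSMG0009083, chr11:43311071-43317078 in GRCm39), securin, which holds separase inactive until anaphase, read 1007, 983 and 1063 (cPLA_2_ WT) and 1366, 1082 and 1051 (cPLA_2_ KO) in nonconfined DCs, then 2301, 2109 and 2107 (cPLA_2_ WT) and 725, 775 and 832 (cPLA_2_ KO) in confined DCs. It rose in cPLA_2_ WT DCs and fell in cPLA_2_ KO DCs, without overlap in either (log2 fold change 1.09, limma adjusted p = 1.12e-10 for cPLA_2_ WT, and -0.58, adjusted p = 3.46e-06 for cPLA_2_ KO). *Cdc25b*, a phosphatase that activates CDK1, read 944, 1023 and 991 (cPLA_2_ WT) and 879, 947 and 937 (cPLA_2_ KO) in nonconfined DCs, then 691, 751 and 714 (cPLA_2_ WT) and 1116, 1045 and 1019 (cPLA_2_ KO) in confined DCs. It fell in cPLA_2_ WT DCs (-0.46, limma adjusted p = 9.14e-05) and had 0.20 in cPLA_2_ KO DCs, which did not pass (adjusted p = 0.0566) but did with DESeq2 (0.20, adjusted p = 0.0402), with a filter of 100 counts (adjusted p = 0.0452) and with the compared groups fitted alone (adjusted p = 0.0266). *Cenpe*, a kinetochore motor, did not pass in cPLA_2_ KO DCs (-0.17, limma adjusted p = 0.342).

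For 5 members the call in cPLA_2_ KO DCs ended when single libraries were left out, and for 4 of them under other alternatives too. *Bub1*, a spindle checkpoint kinase, fell (-0.43, limma adjusted p = 0.0299) but did not pass without confined cPLA_2_ KO replicate 2 (-0.38, adjusted p = 0.106) or replicate 3 (-0.45, adjusted p = 0.0592), or without nonconfined cPLA_2_ KO replicate 1 (-0.42, adjusted p = 0.075) or replicate 3 (-0.42, adjusted p = 0.0759). It also did not pass with no filter (limma adjusted p = 0.0552) or DESeq2 (-0.44, adjusted p = 0.0602). *Bub1b*, of the same checkpoint, fell by a small amount (-0.14, limma adjusted p = 0.0348) and did not pass without confined replicate 2 (-0.09, adjusted p = 0.207) or without nonconfined replicate 1, 2 or 3 (-0.14, adjusted p = 0.0708, -0.13, adjusted p = 0.0712 and -0.15, adjusted p = 0.0612), nor with no filter (adjusted p = 0.0558) or the compared groups fitted alone (adjusted p = 0.0592). *Cenpf*, a kinetochore protein, lost its call (-0.33, limma adjusted p = 0.0287) without confined replicate 1 (-0.27, adjusted p = 0.115) or 3 (-0.30, adjusted p = 0.0831), or without nonconfined replicate 2 (-0.31, adjusted p = 0.0738) or 3 (-0.31, adjusted p = 0.0792), or with no filter (adjusted p = 0.0517). *Cdc25c*, a phosphatase of mitotic entry, lost it (-0.42, limma adjusted p = 0.0243) without confined replicate 2 (-0.27, adjusted p = 0.165) or nonconfined replicate 1 (-0.39, adjusted p = 0.0692). *Brca1*, of the S phase group, lost it (-0.56, limma adjusted p = 0.0137) without confined replicate 2 (-0.39, adjusted p = 0.102) or without nonconfined replicate 2 (-0.46, adjusted p = 0.0705) or 3 (-0.47, adjusted p = 0.069), or with the compared groups fitted alone (adjusted p = 0.0525).

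**Figure D2:**
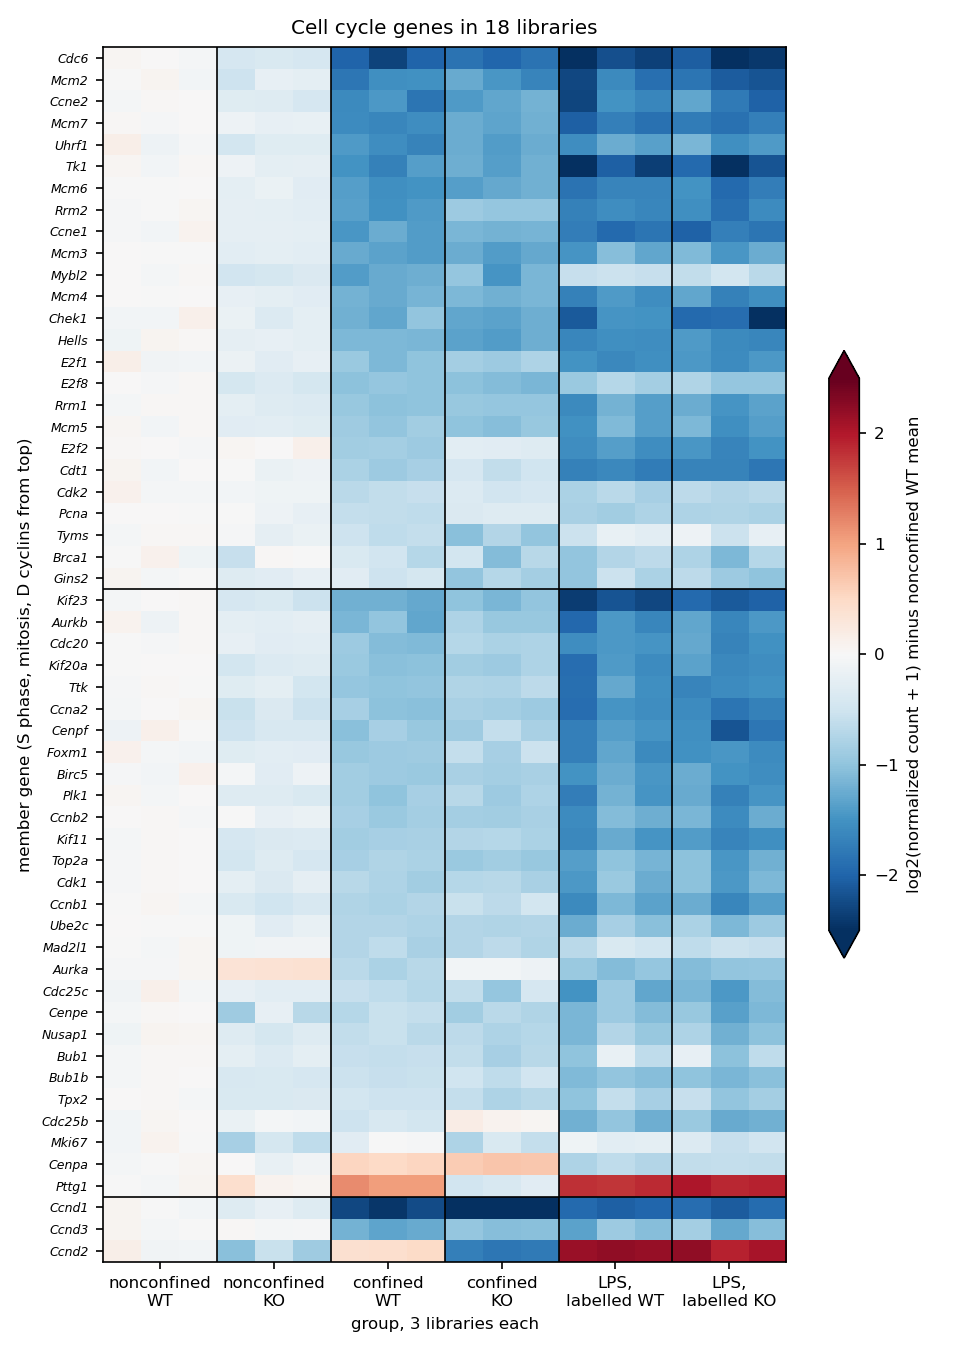
Level of each of the 56 members in each of 18 libraries, as log2(normalized count + 1) minus the mean of nonconfined cPLA_2_ WT libraries, with values beyond the scale drawn in its end colours and the members of each role ordered by their change on confinement in cPLA_2_ WT DCs. *Cenpa*, *Pttg1* and *Ccnd2* are the 3 members above 0 in confined cPLA_2_ WT DCs.

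The 3 D cyclins, which pair with CDK4 and CDK6 at the start of the cycle, did not move together. *Ccnd1* (gene identifier GSMG0052861, chr7:144483668-144493662 in GRCm39) read 3527, 3327 and 3210.4 (cPLA_2_ WT) and 2692, 2894 and 2678 (cPLA_2_ KO) in nonconfined DCs, then 689.9, 617 and 712 (cPLA_2_ WT) and 578, 471 and 501 (cPLA_2_ KO) in confined DCs. It had the largest fall of all 56 members in both genotypes (log2 fold change -2.32, limma adjusted p = 1.7e-16 for cPLA_2_ WT, and -2.42, adjusted p = 5.1e-16 for cPLA_2_ KO). *Ccnd3* read 20565, 18992 and 19414 (cPLA_2_ WT) and 19962, 18983 and 19186 (cPLA_2_ KO) in nonconfined DCs, then 8633, 7868 and 8224 (cPLA_2_ WT) and 10059, 9406 and 9509 (cPLA_2_ KO) in confined DCs. It fell in both genotypes (log2 fold change -1.25, limma adjusted p = 9.35e-11 for cPLA_2_ WT, and -1.005, adjusted p = 7.37e-09 for cPLA_2_ KO). *Ccnd2* (gene identifier GSMG0047148, chr6:127102129-127128011 in GRCm39) read 2979, 2543 and 2571 (cPLA_2_ WT) and 1308, 1824 and 1456 (cPLA_2_ KO) in nonconfined DCs, then 3575, 3602 and 3762 (cPLA_2_ WT) and 827, 769.9 and 785 (cPLA_2_ KO) in confined DCs. It rose in cPLA_2_ WT DCs and fell in cPLA_2_ KO DCs (log2 fold change 0.44, limma adjusted p = 0.000269 for cPLA_2_ WT, and -0.93, adjusted p = 2.66e-08 for cPLA_2_ KO), and with equal totals the value in cPLA_2_ WT DCs was 0.21 and did not pass (adjusted p = 0.0608).

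The difference between the genotypes in their response to confinement was tested itself, as the change in cPLA_2_ KO DCs minus the change in cPLA_2_ WT DCs. It was above 0 for 29 of 56 members and below 0 for 2, against 10.2% and 15.6% of all genes. Some lists of markers of other cells moved with it. For dividing myeloid progenitors 8 of 11 were above 0 (*Elane* 2.02 and *Mpo* 1.49) and 1 below. For neutrophils 6 of 10 were above 0 (*S100a8* 0.67) and 1 below, while 5 of 9 dendritic markers were below 0. Macrophage (10), eosinophil (7) and megakaryocyte (3 tested) markers had 0 above 0 and 1 below in each list. For mast cells and basophils 2 of 8 tested were above 0 and 2 below, and 0 of 6 lymphoid markers tested passed. Of the S phase members 14 passed, each above 0, with a median difference of 0.40. Of the mitosis members 15 passed above 0 and 1 below, with a median of 0.37, and the median of all genes was 0.05. With equal totals the median of all genes moved to 0.24, and the medians relative to it were 0.35 for S phase and 0.32 for mitosis. That scaling put 4741 genes above 0 and 1962 below, where 1823 and 2796 stood before, and 44 members above and 2 below.

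Of the positive differences that passed, the largest was that of *Rrm2* (0.72, limma adjusted p = 1e-05), followed by *Cdc25b* (0.66, adjusted p = 0.000242) and *Ccnb1* (0.63, adjusted p = 0.00154). The members below 0 were *Pttg1* (-1.67, limma adjusted p = 1.1e-10) and *Ccnd2* (-1.37, adjusted p = 2.55e-08), the pair that rose in cPLA_2_ WT DCs and fell in cPLA_2_ KO DCs. For *Cdc6* (0.62, limma adjusted p = 0.0161) the call ended without confined cPLA_2_ WT replicate 2 (0.52, adjusted p = 0.0525). *Plk1* (0.45, limma adjusted p = 0.0312) did not pass without confined cPLA_2_ KO replicate 1 (0.40, adjusted p = 0.0777) or 3 (0.44, adjusted p = 0.0605), confined cPLA_2_ WT replicate 2 (0.40, adjusted p = 0.0815), nonconfined cPLA_2_ KO replicate 3 (0.43, adjusted p = 0.0674), or nonconfined cPLA_2_ WT replicate 1 (0.42, adjusted p = 0.0701) or 3 (0.45, adjusted p = 0.0566), nor with no filter (adjusted p = 0.0562). *Mcm2* had 0.49 and did not pass (limma adjusted p = 0.078), but did without confined cPLA_2_ KO replicate 3 (0.58, adjusted p = 0.0491), with equal totals (0.68, adjusted p = 0.016) and with the compared groups fitted alone (adjusted p = 0.0168). *Ccne2* had 0.66 and did not pass (limma adjusted p = 0.053), but did with a pseudocount of 5 (0.66, adjusted p = 0.0486), a filter of 100 counts (adjusted p = 0.043), equal totals (0.85, adjusted p = 0.0138), DESeq2 (0.64, adjusted p = 0.0278), the compared groups alone (adjusted p = 0.00112) and without confined cPLA_2_ WT replicate 2 (0.76, adjusted p = 0.0428). *Mcm4* had 0.29 (limma adjusted p = 0.0527) and passed with a pseudocount of 5 (adjusted p = 0.0495), a filter of 100 counts (adjusted p = 0.0415), equal totals (0.47, adjusted p = 0.00279), DESeq2 (0.27, adjusted p = 0.0457) and the compared groups alone (adjusted p = 0.00147). With the compared groups fitted alone 42 members were above 0, and the share of all genes above 0 in that fit is not given here.

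**Figure D3:**
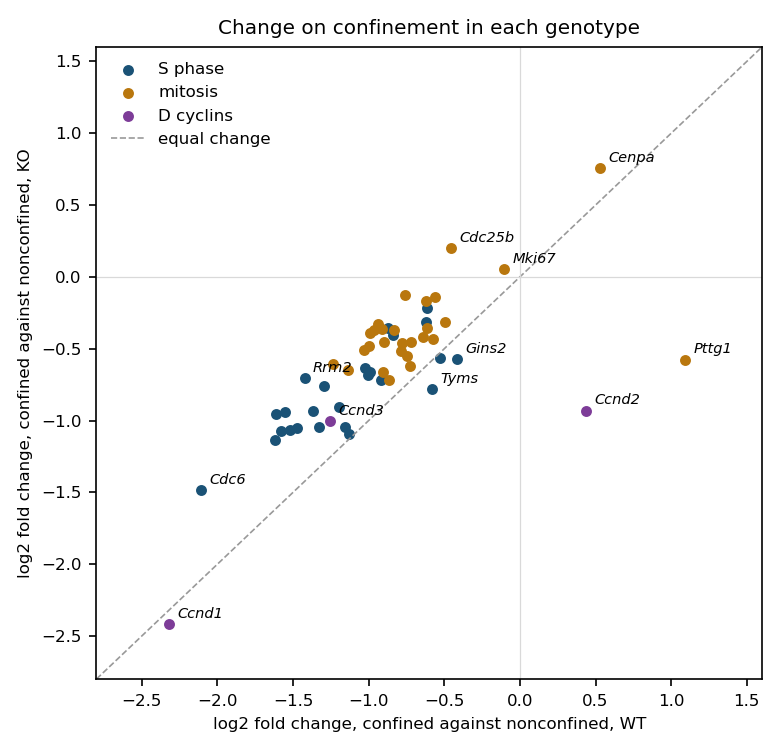
Log2 fold change on confinement at 3 µm of the 56 members in cPLA_2_ WT DCs (x axis) and in cPLA_2_ KO DCs (y axis), coloured by role, with a dashed line of equal change. *Pttg1* (1.09 and -0.58) and *Ccnd2* (0.44 and -0.93) lie where cPLA_2_ WT is above 0 and cPLA_2_ KO below.

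Nonconfined cPLA_2_ KO DCs held less of many of these transcripts than nonconfined cPLA_2_ WT DCs. Of the 56 members 24 were lower and 1 was higher, against 4.11% and 4.78% of all genes, with medians of -0.24 for S phase (7 lower) and -0.31 for mitosis (15 lower) and of -0.0016 for all genes. Markers of other cells were higher in the same libraries, 10 of 10 for neutrophils (*S100a8* 0.51 and *Retnlg* 1.25), 5 of 7 for eosinophils (*Epx* 1.33, with 1 lower), 5 of 8 for mast cells and basophils, 4 of 10 for macrophages and 1 of 11 for dividing progenitors. Of the 9 dendritic markers 3 were higher too and 1 was lower. The count of lower members was 13 without nonconfined cPLA_2_ KO replicate 1, 14 without nonconfined cPLA_2_ KO replicate 3, 14 without nonconfined cPLA_2_ WT replicate 2 and 14 without nonconfined cPLA_2_ WT replicate 3. Shares of all genes without those libraries are not given here, so a loss of calls over all genes is not set apart. With equal totals 757 genes were higher and 1045 lower, where 854 and 734 were before, and 31 members were lower. The largest differences were those of *Ccnd2* (-0.83, limma adjusted p = 6.7e-06), *Mki67* (-0.63, adjusted p = 0.00038) and *Cenpe* (-0.59, adjusted p = 0.00937). *Cenpe* did not pass without nonconfined cPLA_2_ KO replicate 1 (-0.45, limma adjusted p = 0.0764) or with the compared groups fitted alone (adjusted p = 0.0667). *Aurka*, a kinase of spindle poles, was the member that stood higher, and read 923, 923 and 969.9 (cPLA_2_ WT) and 1196, 1198 and 1228 (cPLA_2_ KO) in nonconfined DCs, then 588, 540.2 and 583 (cPLA_2_ WT) and 893, 890.4 and 856 (cPLA_2_ KO) in confined DCs (nonconfined difference 0.36, limma adjusted p = 0.00107). The cPLA_2_ KO libraries were above the cPLA_2_ WT libraries in both conditions.

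Between the genotypes after confinement 15 members were higher and 6 lower in cPLA_2_ KO DCs, against 18.8% and 20.6% of all genes, with medians of 0.18 for S phase and 0.09 for mitosis beside 0.04 for all genes. Of the markers, 9 of 11 for dividing progenitors were higher and 1 lower, 9 of 10 for neutrophils were higher and 1 lower, and 5 of 7 for eosinophils were higher and 2 lower. The count of higher members was 9 without confined cPLA_2_ KO replicate 1 and 9 without confined cPLA_2_ KO replicate 3, and shares of all genes without those libraries are not given here. With equal totals 6001 genes were higher and 2604 lower, where 3356 and 3682 were before, with 31 members higher and 5 lower, and medians relative to all genes of 0.15 for S phase and 0.05 for mitosis, where the median of all genes was 0.19. The 3 members highest against cPLA_2_ WT were *Aurka* (0.62, limma adjusted p = 6.13e-08), *E2f2*, another activating E2F (0.58, adjusted p = 2.99e-08), and *Cdc25b* (0.56, adjusted p = 1.59e-05). The 3 lowest were *Ccnd2* (-2.20, limma adjusted p = 1.28e-14), *Pttg1* (-1.48, adjusted p = 1.15e-12) and *Mki67* (-0.47, adjusted p = 0.000592). These 2 genotype comparisons share their libraries with the confinement comparisons, so their values are not separate evidence.

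Inhibitors of the cyclin-dependent kinases stand upstream of the members. Of 7 listed, 4 rose and 2 fell on confinement in cPLA_2_ WT DCs (all genes, 28.2% rose and 28.4% fell), and 2 rose and 2 fell in cPLA_2_ KO DCs (all genes, 22.8% and 23.4%). *Cdkn1a*, which encodes p21, stood at 42514 ± 730.3 (cPLA_2_ WT) and 39748 ± 159 (cPLA_2_ KO) in nonconfined DCs, then 76502 ± 2634 (cPLA_2_ WT) and 44972 ± 1775 (cPLA_2_ KO) in confined DCs (SD, n = 3). It rose in both (0.85, limma adjusted p = 2.27e-13 for cPLA_2_ WT, and 0.18, adjusted p = 0.00157 for cPLA_2_ KO), and the difference between genotypes was -0.67, adjusted p = 1.31e-08. *Cdkn1b*, which encodes p27, stood at 1976 ± 94.4 (cPLA_2_ WT) and 2240.0 ± 104 (cPLA_2_ KO) in nonconfined DCs, then 4848 ± 158 (cPLA_2_ WT) and 2414 ± 104 (cPLA_2_ KO) in confined DCs (SD, n = 3). It rose in cPLA_2_ WT DCs and did not pass in cPLA_2_ KO DCs (1.29, limma adjusted p = 1.38e-11 for cPLA_2_ WT, and 0.11, adjusted p = 0.301 for cPLA_2_ KO), with a difference between genotypes of -1.19, adjusted p = 5.88e-08. *Cdkn2b* (p15) rose in both (0.87, limma adjusted p = 0.00114 for cPLA_2_ WT, and 0.58, adjusted p = 0.0284 for cPLA_2_ KO), and in cPLA_2_ KO DCs it did not pass with edgeR (0.54, adjusted p = 0.0551) or DESeq2 (0.55, adjusted p = 0.0668). *Cdkn2c* (p18), an inhibitor of CDK4 and CDK6, fell in both (-1.10, limma adjusted p = 3.29e-07 for cPLA_2_ WT, and -0.52, adjusted p = 0.00255 for cPLA_2_ KO). *Cdkn2d* (p19) rose in cPLA_2_ WT DCs and fell in cPLA_2_ KO DCs (0.30, limma adjusted p = 0.0021 for cPLA_2_ WT, and -0.20, adjusted p = 0.0322 for cPLA_2_ KO), and with equal totals its value in cPLA_2_ WT DCs was 0.07 and did not pass (adjusted p = 0.474), while in cPLA_2_ KO DCs it did not pass with no filter (adjusted p = 0.0535).

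**Figure D4:**
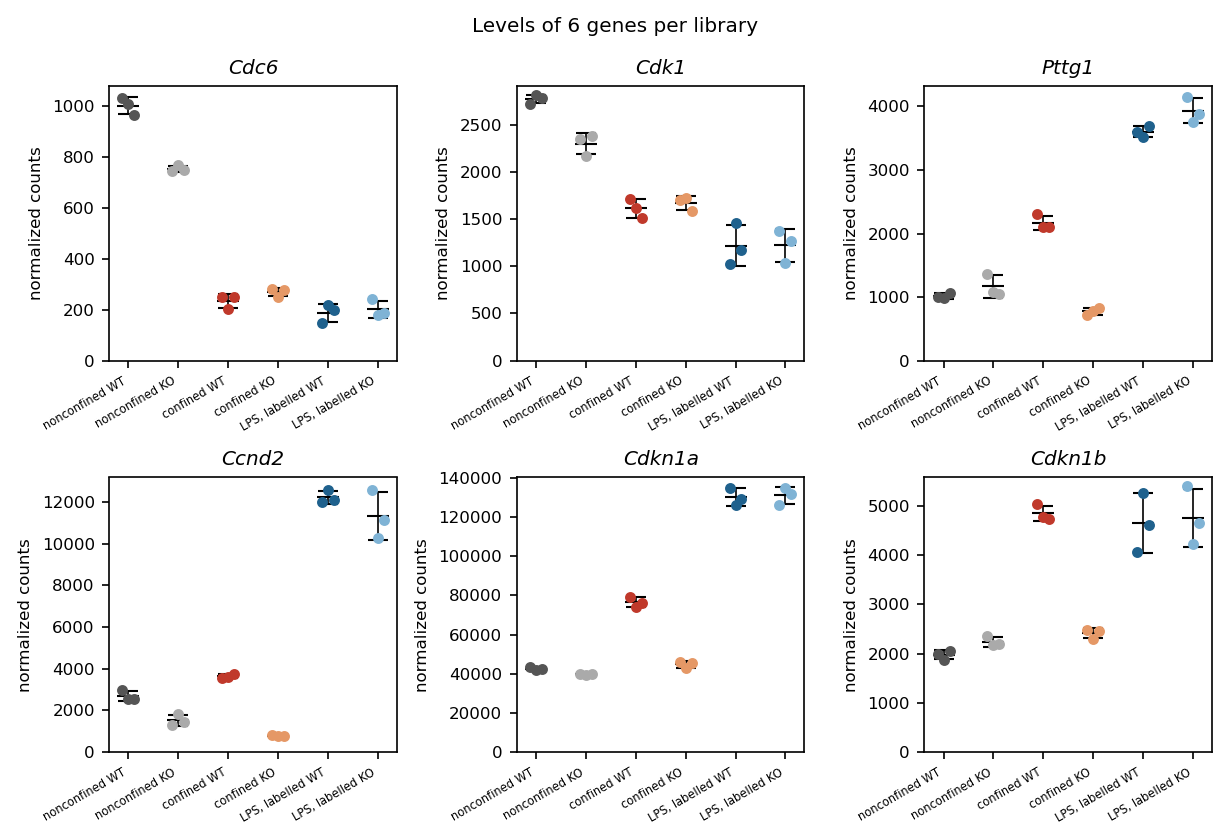
Normalized counts of *Cdc6*, *Cdk1*, *Pttg1*, *Ccnd2*, *Cdkn1a* and *Cdkn1b* per library in the 6 groups (points), with mean and SD (n = 3). Confined cPLA_2_ WT libraries averaged 2172 for *Pttg1* where confined cPLA_2_ KO libraries averaged 777.

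The retinoblastoma family, the MuvB core of the DREAM complex, which represses cell cycle genes in resting cells, and the E2F factors outside the member list form a list of 14. In cPLA_2_ WT DCs 2 rose and 7 fell (all genes, 28.2% rose and 28.4% fell), and in cPLA_2_ KO DCs 1 rose and 6 fell (all genes, 22.8% and 23.4%). *Rb1*, the retinoblastoma gene, had -0.05, limma adjusted p = 0.537 for cPLA_2_ WT, and 0.15, adjusted p = 0.0762 for cPLA_2_ KO, neither past the test, and it fell in cPLA_2_ WT DCs with equal totals (-0.28, adjusted p = 0.00189). *Rbl1*, which encodes p107, fell (-0.25, limma adjusted p = 0.00731 for cPLA_2_ WT, and -0.22, adjusted p = 0.0183 for cPLA_2_ KO), as did *Rbl2*, which encodes p130 (-0.61, adjusted p = 8.13e-08 for cPLA_2_ WT, and -0.24, adjusted p = 0.00633 for cPLA_2_ KO). *Lin54*, the DNA-binding subunit of MuvB, rose in both (1.498, limma adjusted p = 1.08e-12 for cPLA_2_ WT, and 0.77, adjusted p = 1.04e-07 for cPLA_2_ KO). *Lin9*, of the same core, rose in cPLA_2_ WT DCs (0.35, limma adjusted p = 0.0333), but did not pass with equal totals (0.13, adjusted p = 0.457) or TMM scaling (0.30, adjusted p = 0.0539). *Tfdp1*, the dimer partner of E2F factors, fell (-1.05, limma adjusted p = 1.56e-12 for cPLA_2_ WT, and -0.40, adjusted p = 9.39e-06 for cPLA_2_ KO). *E2f7*, a repressing E2F, fell in cPLA_2_ WT DCs (-1.06, limma adjusted p = 1.72e-06) and had -0.25 in cPLA_2_ KO DCs (adjusted p = 0.16). *E2f5* fell in cPLA_2_ KO DCs (-0.37, limma adjusted p = 0.0308), but did not pass with the compared groups fitted alone (adjusted p = 0.0643).

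Of 12 listed G1 kinases and MYC family genes, 5 rose and 6 fell in cPLA_2_ WT DCs (all genes, 28.2% rose and 28.4% fell), and 3 rose and 9 fell in cPLA_2_ KO DCs (all genes, 22.8% and 23.4%). *Myc*, a transcription factor of cell growth, stood at 1716 ± 87.2 (cPLA_2_ WT) and 1414 ± 46.6 (cPLA_2_ KO) in nonconfined DCs, then 525 ± 54.3 (cPLA_2_ WT) and 801 ± 72.2 (cPLA_2_ KO) in confined DCs (SD, n = 3), and fell in both (-1.71, limma adjusted p = 2.45e-11 for cPLA_2_ WT, and -0.82, adjusted p = 3.58e-06 for cPLA_2_ KO). *Mycl*, its relative in dendritic cells, fell by the most of this list in cPLA_2_ WT DCs (-2.42, limma adjusted p = 1.88e-13 for cPLA_2_ WT, and -1.74, adjusted p = 1.26e-10 for cPLA_2_ KO). *Mxd1*, which competes with MYC for the partner MAX, rose in cPLA_2_ WT DCs and fell in cPLA_2_ KO DCs (1.57, limma adjusted p = 1.07e-18 for cPLA_2_ WT, and -0.10, adjusted p = 0.0421 for cPLA_2_ KO), with a difference between genotypes of -1.66, adjusted p = 4.86e-16. In cPLA_2_ KO DCs its fall did not pass with no filter (limma adjusted p = 0.0732) or with the compared groups fitted alone (adjusted p = 0.0931). *Mxd3*, a relative expressed in cycling cells, fell (-1.96, limma adjusted p = 2.53e-10 for cPLA_2_ WT, and -1.32, adjusted p = 2.44e-07 for cPLA_2_ KO). *Cdk4*, a partner of D cyclins, fell (-0.66, limma adjusted p = 2.55e-07 for cPLA_2_ WT, and -0.44, adjusted p = 9.37e-05 for cPLA_2_ KO), and *Cdk6*, the other partner, rose (0.30, adjusted p = 0.000118 for cPLA_2_ WT, and 0.38, adjusted p = 1.07e-05 for cPLA_2_ KO). With equal totals *Cdk6* had 0.07 in cPLA_2_ WT DCs and did not pass (limma adjusted p = 0.339). *Mnat1*, of the CDK-activating kinase, rose (0.59, limma adjusted p = 2.55e-06 for cPLA_2_ WT, and 0.46, adjusted p = 8.56e-05 for cPLA_2_ KO).

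Genes of replication outside the member list moved with the members. Of 56 listed, 51 fell and 1 rose in cPLA_2_ WT DCs, with a median of -0.83 (all genes, 28.4% fell and 28.2% rose), and 47 fell in cPLA_2_ KO DCs, with a median of -0.55 (all genes, 23.4% fell). *Ung*, a uracil glycosylase, fell by the most in both (-3.19, limma adjusted p = 2.19e-09 for cPLA_2_ WT, and -2.04, adjusted p = 3.13e-06 for cPLA_2_ KO). *Pole2*, of DNA polymerase epsilon, had -1.75 in cPLA_2_ WT DCs (limma adjusted p = 2.41e-07), and *Dut*, which keeps uracil out of DNA, had -1.54 in cPLA_2_ KO DCs (adjusted p = 9.86e-11). *Orc4*, of the origin recognition complex, rose in cPLA_2_ WT DCs (0.45, limma adjusted p = 2.96e-05). Of 72 further mitosis genes, 66 fell and 1 rose in cPLA_2_ WT DCs, with a median of -0.71, and 50 fell in cPLA_2_ KO DCs, with a median of -0.38. *Cdca2* (-1.23) and *Aspm* (-1.17), a spindle pole gene, fell the most in cPLA_2_ WT DCs, and *Cenpm* (-1.11) and *Ckap2* (-0.70) the most in cPLA_2_ KO DCs. *Lmnb1*, lamin B1 of the nuclear lamina, rose in cPLA_2_ WT DCs (0.85, limma adjusted p = 1.06e-11). *Wee1*, a kinase that holds CDK1 inactive, had -0.81, limma adjusted p = 6.13e-06 for cPLA_2_ WT, and -0.07, adjusted p = 0.677 for cPLA_2_ KO.

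Of 16 genes of the anaphase-promoting complex, 3 rose and 6 fell in cPLA_2_ WT DCs (all genes, 28.2% rose and 28.4% fell), and 3 rose and 4 fell in cPLA_2_ KO DCs (all genes, 22.8% and 23.4%). The subunit genes *Cdc27* (0.84, limma adjusted p = 1.97e-08 for cPLA_2_ WT, and 0.48, adjusted p = 7.03e-05 for cPLA_2_ KO) and *Anapc7* (0.63, adjusted p = 9.09e-09 for cPLA_2_ WT, and 0.28, adjusted p = 0.000516 for cPLA_2_ KO) rose in both. *Anapc13* fell in both (-0.71, limma adjusted p = 2.52e-07 for cPLA_2_ WT, and -0.39, adjusted p = 0.000632 for cPLA_2_ KO), and so did *Anapc11* (-0.32, adjusted p = 1.61e-05 for cPLA_2_ WT, and -0.29, adjusted p = 8.1e-05 for cPLA_2_ KO) and *Anapc15* (-0.48, adjusted p = 1.19e-05 for cPLA_2_ WT, and -0.29, adjusted p = 0.00337 for cPLA_2_ KO). *Fzr1*, the G1 activator of the complex, had 0.09, limma adjusted p = 0.153 for cPLA_2_ WT, and 0.01, adjusted p = 0.862 for cPLA_2_ KO, and fell in cPLA_2_ WT DCs with equal totals (-0.14, adjusted p = 0.0139).

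The LPS libraries, taken the next day, held the lowest levels of most members. In the libraries labelled LPS cPLA_2_ WT, against nonconfined cPLA_2_ WT DCs, 53 members fell and 2 rose, against 29.4% and 33.4% of all genes, with medians of -1.55 for S phase and -1.22 for mitosis. In those labelled LPS cPLA_2_ KO, against nonconfined cPLA_2_ KO DCs, 50 fell and 2 rose, against 30.1% and 33.4%, with medians of -1.27 and -1.01. All 6 LPS libraries against all 6 nonconfined ones gave 25 of 25 S phase members fallen and 26 of 28 mitosis members fallen, where 6028 of 17875 genes fell and 6560 rose, with medians of -1.41 and -1.14 beside 0.02 for all genes. A log2 fold change below -1 was reached by 40 members by the cPLA_2_ WT label, against 12.3% of all genes, and by 34 by the cPLA_2_ KO label, against 12.9%. With equal totals the median of all genes was -0.47 and -0.44 for the cPLA_2_ WT and cPLA_2_ KO labels, and relative to it the S phase medians were -1.59 and -1.30, and the mitosis medians -1.26 and -1.05. For the cPLA_2_ WT label 3182 genes rose and 9294 fell with equal totals, where 5965 and 5258 did before. For the cPLA_2_ KO label 3271 rose and 9190 fell, where 5972 and 5384 did before.

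*Cdc6* read 147, 218 and 198 in the libraries labelled LPS cPLA_2_ WT and 241, 177 and 186 in those labelled LPS cPLA_2_ KO. *Ccne1* read 540.3, 466 and 509 in the libraries labelled LPS cPLA_2_ WT and 443, 549 and 511 in those labelled LPS cPLA_2_ KO. *Ccne2* read 152, 268 and 243 in the libraries labelled LPS cPLA_2_ WT and 303, 221 and 184 in those labelled LPS cPLA_2_ KO. All these libraries were below the nonconfined ones, with pooled log2 fold changes of -2.17 for *Cdc6*, -1.73 for *Ccne1* and -1.58 for *Ccne2*. *E2f1* read 371, 339.6 and 358 in the libraries labelled LPS cPLA_2_ WT and 386, 351 and 385 in those labelled LPS cPLA_2_ KO. *Mcm2* read 235, 375 and 308 in the libraries labelled LPS cPLA_2_ WT and 321, 267 and 255 in those labelled LPS cPLA_2_ KO. *Mcm5* read 2253, 2967 and 2482 in the libraries labelled LPS cPLA_2_ WT and 2936, 2228 and 2453 in those labelled LPS cPLA_2_ KO. They too stood below every nonconfined library (pooled -1.41, -1.81 and -1.19). *Pcna* read 5019, 4810.0 and 5179.5 in the libraries labelled LPS cPLA_2_ WT and 5175, 5234 and 5068 in those labelled LPS cPLA_2_ KO. *Rrm2* read 1129, 1238 and 1185 in the libraries labelled LPS cPLA_2_ WT and 1264, 989 and 1234 in those labelled LPS cPLA_2_ KO. *Uhrf1* read 712, 875 and 816 in the libraries labelled LPS cPLA_2_ WT and 938, 719.7 and 776 in those labelled LPS cPLA_2_ KO. These were lower as well, with pooled changes of -0.74, -1.52 and -1.20. *Tyms* read 918, 1183 and 1115 in the libraries labelled LPS cPLA_2_ WT and 1223, 929 and 1165 in those labelled LPS cPLA_2_ KO, which overlapped with nonconfined values (pooled -0.24, limma adjusted p = 0.00732). Under the cPLA_2_ WT label *Tyms* had -0.33 (limma adjusted p = 0.0076), and without LPS cPLA_2_ WT replicate 1 it did not pass (-0.22, adjusted p = 0.0664). Under the cPLA_2_ KO label it had -0.14 and did not pass (limma adjusted p = 0.228), but fell with equal totals (-0.62, adjusted p = 3.54e-05). *Tk1* had log2 fold changes of -2.38 under the cPLA_2_ WT label and -2.08 under the cPLA_2_ KO label. *Chek1*, the replication checkpoint kinase, had -1.87 under the cPLA_2_ KO label (limma adjusted p = 2.36e-09).

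*Cdk1* read 1024, 1461 and 1179 in the libraries labelled LPS cPLA_2_ WT and 1370.4, 1031 and 1272 in those labelled LPS cPLA_2_ KO. *Ccnb1* read 601, 826 and 714 in the libraries labelled LPS cPLA_2_ WT and 765, 582 and 697 in those labelled LPS cPLA_2_ KO. *Plk1* read 767, 1121 and 915 in the libraries labelled LPS cPLA_2_ WT and 1076, 798 and 919 in those labelled LPS cPLA_2_ KO. All were below the nonconfined libraries, with pooled log2 fold changes of -1.06 for *Cdk1*, -1.17 for *Ccnb1* and -1.30 for *Plk1*. *Aurkb* read 399.8, 574 and 502 in the libraries labelled LPS cPLA_2_ WT and 628, 501 and 571 in those labelled LPS cPLA_2_ KO. *Birc5* read 1162, 1387 and 1198 in the libraries labelled LPS cPLA_2_ WT and 1388, 1163 and 1124 in those labelled LPS cPLA_2_ KO. *Cdc20* read 1116, 1205 and 1173 in the libraries labelled LPS cPLA_2_ WT and 1350.3, 1029 and 1149.9 in those labelled LPS cPLA_2_ KO. Their LPS libraries did not overlap with nonconfined ones (pooled -1.45, -1.34 and -1.36). *Foxm1* read 839, 1111 and 914 in the libraries labelled LPS cPLA_2_ WT and 962, 1006 and 918 in those labelled LPS cPLA_2_ KO. *Top2a* read 7979, 10253 and 9204 in the libraries labelled LPS cPLA_2_ WT and 10144, 7467 and 9004 in those labelled LPS cPLA_2_ KO. *Mki67* read 3697, 3277 and 3340.1 in the libraries labelled LPS cPLA_2_ WT and 3124, 2637 and 2849 in those labelled LPS cPLA_2_ KO. The first pair was lower (pooled -1.38 and -1.002), and *Mki67* had -0.20 (limma adjusted p = 0.0774) under the cPLA_2_ WT label and 0.16 (adjusted p = 0.157) under the cPLA_2_ KO label. With equal totals *Mki67* passed under both labels (-0.72, limma adjusted p = 5.52e-06, and -0.32, adjusted p = 0.0135). Under the cPLA_2_ WT label it also passed with TMM scaling (-0.27, limma adjusted p = 0.0169), edgeR (-0.25, adjusted p = 0.0316), DESeq2 (-0.23, adjusted p = 0.0359), the compared groups alone (-0.20, adjusted p = 0.012) and without LPS cPLA_2_ WT replicate 1 (-0.26, adjusted p = 0.045). Under the cPLA_2_ KO label it passed in the other direction, as a rise, without nonconfined cPLA_2_ KO replicate 2 (0.26, limma adjusted p = 0.0325). *Kif23*, a motor of cytokinesis, had the largest fall of the mitosis group under the cPLA_2_ WT label (-2.27, limma adjusted p = 2.91e-17).

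Among the D cyclins, *Ccnd1* read 866, 818 and 853 in the libraries labelled LPS cPLA_2_ WT and 901, 788 and 878 in those labelled LPS cPLA_2_ KO. *Ccnd3* read 7772, 10471 and 9398 in the libraries labelled LPS cPLA_2_ WT and 10909.5, 8101 and 9380.3 in those labelled LPS cPLA_2_ KO. *Ccnd2* read 12016, 12592 and 12114 in the libraries labelled LPS cPLA_2_ WT and 12568, 10264 and 11158 in those labelled LPS cPLA_2_ KO. *Ccnd2* was above every nonconfined library and the others were below (pooled -1.84 for *Ccnd1*, -1.07 for *Ccnd3* and 2.54 for *Ccnd2*). *Pttg1* read 3591, 3518 and 3695 in the libraries labelled LPS cPLA_2_ WT and 4151, 3762 and 3883 in those labelled LPS cPLA_2_ KO, and it rose with LPS (pooled 1.79, limma adjusted p = 1.53e-16). *Cenpa*, which rose on confinement, read 2311, 2535 and 2371 in the libraries labelled LPS cPLA_2_ WT and 2591, 2613 and 2589.7 in those labelled LPS cPLA_2_ KO and fell with LPS (pooled -0.62, limma adjusted p = 8.81e-12).

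Between the LPS libraries by their genotype labels, 0 members rose and 0 fell with limma, against 0.0% and 0.0% of all genes. At an unadjusted p under 0.05 limma gave 5 members (*Cenpa*, *Cenpf*, *Chek1*, *Kif23* and *Mki67*, named after their values were seen) and 890 of all genes. With edgeR 0 members passed after adjustment and 5 before it (812 genes), and with DESeq2 0 and 5 (831 genes). The 95% intervals of the members' differences lay between -0.77 and 0.47, and the median distance from a value to its bound was 0.18. The libraries still differed within each label, along with the Y-linked *Ddx3y*. Where *Ddx3y* was highest, in LPS cPLA_2_ WT replicate 1 and LPS cPLA_2_ KO replicate 2, the S phase means were -1.57 and -1.52 and the mitosis means -1.28 and -1.26 (log2, relative to nonconfined cPLA_2_ WT). Where it was near 0, in LPS cPLA_2_ WT replicate 2 and LPS cPLA_2_ KO replicate 1, they were -1.28 and -1.28, and -0.95 and -0.98, with both replicates 3 between. In the same order, the sums of the 11 markers of dividing progenitors were 7222 and 6880.1 against 9675 and 9589.9, and those of the 7 eosinophil markers 40517 and 40077 against 23822 and 23624. This split was seen after the fact, and its part in the result by label was not tested.

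The windows from 250 bases before to 50 bases after the annotated starts of these genes were searched for letters linked to the cell cycle. The table of RefSeq windows used (build GRCm38.p6) matched 45 of the 56 members by symbol, 22 of S phase, 22 of mitosis and 1 D cyclin, and *Mcm4*, *Gins2*, *Ccne2*, *Ccna2*, *Cdc25c*, *Aurkb*, *Kif20a*, *Tpx2*, *Foxm1*, *Ccnd1* and *Ccnd2* were not matched. On both strands, CHR letters (TTTGAA or TTCGAA) were in 72.7% of the 22 mitosis members and 18.2% of the 22 S phase members, where 21.7% of all 27025 genes with windows held them. CCAAT was in 81.8%, 59.1% and 41.1%, and CHR letters together with CCAAT in 72.7%, 18.2% and 9.65%. E2F letters were TTCCCGC or TTGGCGC with T before or C after, or TTCGCGC with T before, and may overlap CCAAT on the other strand. These were in 59.1% of S phase members, 9.09% of mitosis members and 4.65% of all genes. A looser set of E2F letters, TTCCCGC or TTGGCGC or TTCGCGC or TTGCCGC with no flanking base, was tried after those counts were seen and gave 68.2%, 13.6% and 10.9%. A match here describes letters and shows no binding.

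The last 150 bases before the start are printed from RefSeq (GRCm38.p6) 5′ to 3′ for *Cdk1* (chr10:69352913-69353062, strand -) and *Cdc20* (chr4:118437344-118437493, strand -), mitosis genes that fell, for *Mcm5* (chr8:75109359-75109508, strand +) and *Mcm6* (chr1:128359706-128359855, strand -), S phase genes that fell, and for *Pttg1* (chr11:43425982-43426131, strand -), which rose in cPLA_2_ WT DCs and fell in cPLA_2_ KO DCs. Capitals mark the letters searched. The whole windows of *Pttg1* and of *Birc5*, *Mad2l1* and *Nusap1*, which fell in both genotypes, held none, and that of *Cenpa*, which rose in both, held CHR letters and CCAAT.
Cdk1: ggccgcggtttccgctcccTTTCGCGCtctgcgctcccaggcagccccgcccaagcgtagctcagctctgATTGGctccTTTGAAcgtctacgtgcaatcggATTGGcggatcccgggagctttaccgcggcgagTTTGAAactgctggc
Cdc20: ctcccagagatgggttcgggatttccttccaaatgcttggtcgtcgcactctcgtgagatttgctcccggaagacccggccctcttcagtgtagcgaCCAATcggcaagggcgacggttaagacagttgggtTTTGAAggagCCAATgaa
Mcm5: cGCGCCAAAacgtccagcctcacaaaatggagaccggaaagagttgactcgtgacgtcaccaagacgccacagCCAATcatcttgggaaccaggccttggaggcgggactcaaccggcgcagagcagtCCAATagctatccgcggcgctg
Mcm6: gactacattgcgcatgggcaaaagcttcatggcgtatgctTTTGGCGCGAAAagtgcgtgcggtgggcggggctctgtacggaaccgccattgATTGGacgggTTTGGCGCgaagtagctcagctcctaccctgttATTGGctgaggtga
Pttg1: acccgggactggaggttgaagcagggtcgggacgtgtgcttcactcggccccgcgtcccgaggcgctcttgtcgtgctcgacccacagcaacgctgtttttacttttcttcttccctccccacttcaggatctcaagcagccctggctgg

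The 56 members lay on 17 chromosomes, with 10 on chromosome 2. Levels of different genes were compared per kilobase of exon in nonconfined cPLA_2_ WT DCs. On that scale, in normalized counts per kb, the highest members were *Pcna* (3669), *Top2a* (2261), *Ccnd3* (2126), *Cdc20* (1682), *Ccna2* (1608), and *Brca1* (29.2) and *Chek1* (36.4) the lowest.

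Markers of other cells of a marrow culture were read beside the members, with their sums in normalized counts and SD (n = 3). Those of dividing myeloid progenitors summed to 12169 ± 299.7 before and 4484 ± 20.5 after confinement of cPLA_2_ WT DCs, and to 12610.2 ± 358 before and 7636 ± 256 after it for cPLA_2_ KO. Of these 11, 10 fell (cPLA_2_ WT) and 9 fell (cPLA_2_ KO), where 28.4% and 23.4% of all genes fell. *Cebpe* was the most abundant, and *Kit* rose in both (0.37 and 0.80). The libraries labelled LPS cPLA_2_ WT and LPS cPLA_2_ KO summed to 8353 ± 1237 and 8191 ± 1357. The progenitor sum was lower in the confined and LPS groups, as most members were, not lower in nonconfined cPLA_2_ KO than in nonconfined cPLA_2_ WT DCs, and higher in confined cPLA_2_ KO than in confined cPLA_2_ WT DCs. Its part in the result was not tested.

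In the same order of groups, with the libraries labelled LPS cPLA_2_ WT and LPS cPLA_2_ KO last, neutrophil markers (10, *S100a9* the most abundant) summed to 271604 ± 2726, 197615 ± 6088, 398765 ± 20175, 381851 ± 6867, 390086 ± 19653 and 390917 ± 28146. On confinement 7 of them fell (cPLA_2_ WT) and 3 fell (cPLA_2_ KO), where 28.4% and 23.4% of all genes fell. *Lcn2* rose in cPLA_2_ WT DCs (0.93), and *Mmp8* (0.18) and *Cxcr2* (0.25) rose in cPLA_2_ KO DCs. Macrophage markers (10, *Csf1r* the most abundant) summed to 68139.8 ± 1535, 66989 ± 1167, 76304 ± 2238, 74728 ± 3556, 59473 ± 5677 and 58746 ± 4837, of which 5 and 6 fell, while *Cd68* rose in both genotypes (0.30 and 0.43). Eosinophil markers (7, *Prg2* the most abundant) summed to 28634 ± 194, 7372 ± 317, 66705 ± 2177, 16675 ± 493, 32143 ± 8348 and 32139 ± 8241, of which 5 and 6 fell, while *Ccr3* rose in cPLA_2_ WT DCs (1.14). Within the label LPS cPLA_2_ WT the eosinophil sums of single libraries ran from 23822 to 40517, and within LPS cPLA_2_ KO from 23624 to 40077. Those of mast cells and basophils (9, *Hdc* the most abundant with all groups pooled, though not in either nonconfined group) summed to 7068 ± 107, 14950.0 ± 351, 10582 ± 204, 5618 ± 90.8, 16959 ± 1462 and 17247 ± 1591. Their higher sum in confined cPLA_2_ WT DCs came with *Hdc*, which went from 735 to 12369.5 on average, while 6 and 7 of the 8 tested fell (cPLA_2_ WT and cPLA_2_ KO). Megakaryocyte markers (4, *Ppbp* the most abundant with all groups pooled, though not in either nonconfined group) summed to 1259 ± 47.1, 5633 ± 171, 1751 ± 58.2, 6888 ± 206, 4400.0 ± 1207 and 4623 ± 1312. On confinement *Ppbp* went from 106 to 4223 (cPLA_2_ WT) and from 167 to 5631 (cPLA_2_ KO) while *Pf4* rose (1.33 and 1.15) and *Itga2b* fell (-0.63 and -1.32). Lymphoid markers (7, *Cd3g*) summed to 2359 ± 21.4, 724 ± 53.5, 2936 ± 141, 1083 ± 119, 507 ± 33.8 and 499 ± 67.5, erythroid markers (7, *Hbb-bt*, with *Alas2* at 0 in every library) to 139 ± 13.9, 77.5 ± 13.7, 151 ± 16.4, 115 ± 10.5, 156 ± 23.0 and 153 ± 29.3 and stromal markers (5, *Col1a1*) to 112 ± 13.4, 55.2 ± 13.4, 195 ± 17.4, 155 ± 18.3, 91.6 ± 21.1 and 86.9 ± 26.0. For each of these lists too, the part in the members' result was not tested.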

How the data were processed

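RNA was sequenced from 18 libraries in 6 groups. The signal values are normalized counts that the authors made before they were deposited, by alignment with STAR 2.7.5a to mm39 (GRCm39), counting with featureCounts 1.5.0 and scaling with DESeq2 in R 3.5.3. TruSeq and Ligation kits are named, but the labels do not say which library used which. Rescaling each library by 1 factor turned 100% of values into whole reads (tolerance 1e-06), 33027230 to 61300021 per library. A gene was tested where 3 or more libraries held 10 or more normalized counts of it (17875 of 62197), as log2(normalized count + 1), by limma 3.58.1 with 1 mean per group and a trend, in R 4.3.3. P-values were adjusted (Benjamini-Hochberg) over all genes tested. The test was also run on simulated data, and the outcome of that run is not given here.

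Alternatives were edgeR 4.0.16 and DESeq2 1.42.0 on recovered reads, other filters, pseudocounts, scalings and thresholds, a replicate block, the compared groups alone and each library left out. Tables and figures used Python 3.11.15, pandas 2.3.3, numpy 2.4.6 and matplotlib 3.10.9. The members and lists were chosen with earlier results of these data known. The lists were kinase inhibitors, pocket proteins with DREAM and E2F genes, G1 kinases with MYC genes, other replication genes, other mitosis genes, anaphase-promoting complex genes and cell type markers. Genes were named from a set list, or as those with the largest rise or fall that passed and a mean of at least 100 normalized counts in 1 of the groups compared. Further members and markers were named outside that rule, among them members whose calls changed under alternatives.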

Additional observations from a re-analysis of the deposited data

Results flagged for a closer look

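Of the 67 genes on the set list of named genes, 38 had a response to confinement that differed between the genotypes in a test of that difference itself (change in cPLA_2_ KO minus change in cPLA_2_ WT DCs, log2, limma, adjusted p under 0.05). Among S phase genes it was above 0 for *E2f1* (0.40), *E2f2* (0.52), *E2f8* (0.32), *Mybl2* (0.53), *Ccne1* (0.43), *Cdk2* (0.30), *Cdc6* (0.62), *Cdt1* (0.43), *Mcm6* (0.42), *Mcm7* (0.51), *Pcna* (0.40), *Rrm1* (0.33), *Rrm2* (0.72) and *Uhrf1* (0.61). Among mitosis genes it was above 0 for *Ccna2* (0.59), *Ccnb1* (0.63), *Cdc20* (0.52), *Cdc25b* (0.66), *Aurka* (0.26), *Aurkb* (0.49), *Bub1b* (0.42), *Plk1* (0.45), *Ttk* (0.60), *Cenpa* (0.23), *Cenpf* (0.61), *Kif11* (0.46), *Kif20a* (0.52), *Kif23* (0.63) and *Foxm1* (0.55), and below 0 for *Pttg1* (-1.67). Of the D cyclins it was below 0 for *Ccnd2* (-1.37). Among the genes of the set list outside the members it was above 0 for *Cdkn2c* (0.57), *Rbl2* (0.38), *Myc* (0.89) and *Wee1* (0.75), and below 0 for *Cdkn1a* (-0.67), *Cdkn1b* (-1.19) and *Cdkn2d* (-0.50). Of all 17875 genes tested, 10.2% were above 0 and 15.6% below, so other genes passed too, *Mxd1* (-1.66), *E2f7* (0.81) and *Lin54* (-0.73) among them. So did 8 of 11 markers of dividing myeloid progenitors above 0 and 1 below, and 6 of 10 neutrophil markers above 0 and 1 below. Of the dendritic markers 5 of 9 were below 0. The macrophage, eosinophil and megakaryocyte lists each had 0 above 0 and 1 below, and the mast cell and basophil list had 2 and 2. With limma *Aurka* did not pass without confined cPLA_2_ KO replicate 1 (0.25, adjusted p = 0.0709), confined cPLA_2_ KO replicate 2 (0.25, adjusted p = 0.0674), confined cPLA_2_ WT replicate 2 (0.22, adjusted p = 0.0952), nonconfined cPLA_2_ KO replicate 1 (0.26, adjusted p = 0.064), nonconfined cPLA_2_ KO replicate 2 (0.26, adjusted p = 0.0553), nonconfined cPLA_2_ KO replicate 3 (0.27, adjusted p = 0.0521), nonconfined cPLA_2_ WT replicate 2 (0.27, adjusted p = 0.0517) or nonconfined cPLA_2_ WT replicate 3 (0.24, adjusted p = 0.09). *Aurkb* did not pass limma without confined cPLA_2_ KO replicate 1 (0.43, adjusted p = 0.0633), confined cPLA_2_ WT replicate 3 (0.41, adjusted p = 0.07), nonconfined cPLA_2_ WT replicate 1 (0.45, adjusted p = 0.0589) or nonconfined cPLA_2_ WT replicate 3 (0.47, adjusted p = 0.0512). *Plk1* did not pass limma without confined cPLA_2_ KO replicate 1 (0.40, adjusted p = 0.0777), confined cPLA_2_ KO replicate 3 (0.44, adjusted p = 0.0605), confined cPLA_2_ WT replicate 2 (0.40, adjusted p = 0.0815), nonconfined cPLA_2_ KO replicate 3 (0.43, adjusted p = 0.0674), nonconfined cPLA_2_ WT replicate 1 (0.42, adjusted p = 0.0701) or nonconfined cPLA_2_ WT replicate 3 (0.45, adjusted p = 0.0566). *Mcm6* did not pass limma without confined cPLA_2_ KO replicate 3 (0.38, adjusted p = 0.0554). *Cdc6* did not pass limma without confined cPLA_2_ WT replicate 2 (0.52, adjusted p = 0.0525). *Rrm1* did not pass limma without confined cPLA_2_ WT replicate 2 (0.31, adjusted p = 0.0504) or nonconfined cPLA_2_ KO replicate 3 (0.30, adjusted p = 0.0575). *Cenpa* did not pass limma without nonconfined cPLA_2_ KO replicate 2 (0.18, adjusted p = 0.0502) or nonconfined cPLA_2_ WT replicate 3 (0.20, adjusted p = 0.0585). *Cdk2* did not pass limma without nonconfined cPLA_2_ WT replicate 1 (0.25, adjusted p = 0.052). *Cdkn2c* did not pass limma without confined cPLA_2_ KO replicate 1 (0.49, adjusted p = 0.077), confined cPLA_2_ KO replicate 3 (0.54, adjusted p = 0.0628), confined cPLA_2_ WT replicate 2 (0.51, adjusted p = 0.07), confined cPLA_2_ WT replicate 3 (0.52, adjusted p = 0.0674), nonconfined cPLA_2_ KO replicate 3 (0.54, adjusted p = 0.0638) or nonconfined cPLA_2_ WT replicate 2 (0.52, adjusted p = 0.0731). With edgeR *Aurka* (0.23, adjusted p = 0.0599) and *Cenpa* (0.19, adjusted p = 0.0553) did not pass, and with limma and no filter *Plk1* did not (adjusted p = 0.0562).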

How the results depend on the processing

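Libraries come 3 to a group, labels do not state separate animals, sampling time and handling differ between conditions, donor sex and genotype cannot be told apart without LPS, and the genotype labels of the LPS libraries go against *Pla2g4a*. Nothing here separates the share of dividing cells from transcript per cell. Over the named genes and their alternatives, 8585 values kept their call, 268 lost it, 116 gained it and 9 changed sign.

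With equal totals the medians (S phase, then mitosis) became -1.38 and -0.99 for confinement in cPLA_2_ WT, -0.82 and -0.46 for confinement in cPLA_2_ KO, 0.59 and 0.56 for their difference (44 members above 0), -0.28 and -0.34 between nonconfined genotypes, and 0.34 and 0.24 between confined genotypes (31 members higher). With LPS they became -2.06 and -1.73 (cPLA_2_ WT label) and -1.74 and -1.49 (cPLA_2_ KO label). TMM scaling gave -1.21 and -0.82 for confinement in cPLA_2_ WT, and -0.82 and -0.47 in cPLA_2_ KO. edgeR gave -1.14 and -0.74 for confinement in cPLA_2_ WT, 0.36 and 0.33 for the difference, and 0.057 for mitosis genes between confined genotypes.

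DESeq2 gave 2 members rising on confinement in cPLA_2_ KO DCs, a filter of 100 gave 2, and the compared groups alone gave 2. All-gene counts under these settings are not given here. Under the next thresholds on limma values, members are counted with the count of all 17875 genes tested past the same threshold in parentheses. A log2 fold change above 1 left 1 (2038) rising and 21 (1362) falling in cPLA_2_ WT, 0 (1150) rising and 10 (989) falling in cPLA_2_ KO, 0 (198) above 0 and 2 (1173) below for the difference, 0 (152) higher and 0 (54) lower between nonconfined genotypes, and 0 (498) higher and 2 (1307) lower between confined ones. A 1.5-fold change with an unadjusted p of at most 0.05 left 1 (3269) rising and 45 (2898) falling in cPLA_2_ WT, 1 (2254) rising and 27 (1973) falling in cPLA_2_ KO, 10 (1019) above 0 and 2 (1937) below for the difference, 0 (601) higher and 3 (399) lower between nonconfined genotypes, and 1 (1366) higher and 2 (2109) lower between confined ones. The study's text names both sets of thresholds, the latter without saying whether p was adjusted. With LPS labels pooled the S phase median was -1.41 beside both labels, and the mitosis median -1.14 beside the cPLA_2_ KO label.

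With each library left out in turn, S phase medians, mitosis medians and falling members ran from -1.21 to -1.11, -0.78 to -0.75 and 51 to 52 (confinement, cPLA_2_ WT), -0.87 to -0.79, -0.45 to -0.39 and 47 to 50 (confinement, cPLA_2_ KO), -0.26 to -0.23, -0.33 to -0.29 and 13 to 18 (genotype, nonconfined), 0.13 to 0.21, 0.067 to 0.095 and 5 to 7 (genotype, confined). Members higher between confined genotypes ran from 9 to 13, and between nonconfined ones from 1 to 1. The difference ran from 0.37 to 0.42 and 0.32 to 0.39, with 25 to 29 members above 0. With LPS the medians ran from -1.55 to -1.48 and -1.37 to -1.10 (cPLA_2_ WT label), and from -1.36 to -1.22 and -1.11 to -0.92 (cPLA_2_ KO label). Counts of all genes with a library left out are not given here.

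The sign turned, under equal totals and with LPS, for *Anapc7* (-0.032), *Mnat1* (-0.17), *Orc4* (-0.30), *Cdk6* (-0.34) and *Fzr1* (-0.24) by the cPLA_2_ WT label, and for *Anapc7* (-0.099), *Mnat1* (-0.043), *Cdk6* (-0.18) and *Fzr1* (-0.053) by the cPLA_2_ KO label. That scaling moved the median of all genes down with LPS, as given above, and the cause was not tested. A replicate block, with replicates paired by number, gave 20 members lower between nonconfined genotypes and 12 higher between confined ones, 52 falling on confinement in cPLA_2_ WT and 51 in cPLA_2_ KO, and 29 above 0 for the difference. Counts of all genes under that block are not given here. The labels do not say that numbers pair libraries. The looser E2F letters, chosen after seeing the data, raised matched S phase members from 13 to 15 and matched mitosis members from 2 to 3.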
